A study of Mus musculus with 2 samples.

Results

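Kruppel-like factors are the subject here, taken as the 10 genes Klf2, Klf3, Klf4, Klf5, Klf6, Klf7, Klf9, Klf10, Klf11 and Klf13, out of 47643 genes listed in the deposited table of RNA sequencing reads. The genes were picked by name. All 10 were found, each as 1 row, and all 10 reached 5 CPM (the exon reads of a gene scaled to an exon total of 1e6 for its library) in at least 1 library, as did 10407 genes in all. The table holds 1 library of LPA-derived macrophages and 1 library of monocytes. The macrophages had been grown from mouse bone marrow monocytes with added LPA (lysophosphatidic acid), a signalling phospholipid that acts through cell surface receptors, and the monocytes came from bone marrow. Both are labelled as wild-type C57BL/6 at 6 weeks of age. The labels give neither the isolation method, nor the days in culture, nor whether animals were pooled. Neither library comes from a culture without LPA, so an effect of LPA cannot be told apart from one of culture or of differentiation. Since each group is a single library, nothing could be tested against replicates, and every interval below is a 95% counting interval that leaves out the spread between cultures or animals.

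Kruppel-like factors are transcription factors that share zinc fingers at the C-terminal end and bind CACCC boxes and other GC-rich stretches of DNA. They are usually sorted into branches by their cofactors: an activating branch (here Klf2, Klf4, Klf5, Klf6 and Klf7), a branch that recruits the corepressor CtBP (here Klf3), and a branch that recruits SIN3A (here Klf9, Klf10, Klf11 and Klf13). In mice, KLF4 is needed for the formation of inflammatory monocytes, KLF2 restrains the inflammatory activation of myeloid cells, and KLF6 takes part in the induction of inflammatory genes in macrophages. Several of the genes, among them Klf2, Klf4, Klf6 and Klf10, are also known as rapidly induced genes with short-lived transcripts.

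The macrophage library held 16726342 and the monocyte library 12473180 unique exon reads. All 6 macrophage marker genes were past 2-fold on the higher side in macrophages (summed level 19019 CPM in macrophages and 367 CPM in monocytes). Most of the macrophage sum came from Gpnmb, at 15918 CPM in macrophages and 3.29 CPM in monocytes. Of 6 monocyte marker genes, 5 were at least 2-fold lower and Csf1r was higher (summed level 1952 and 5796 CPM in macrophages and monocytes). Among all genes at 5 CPM or more, 13.8% were at least 2-fold higher and 19.9% at least 2-fold lower. Markers of other marrow cells were present too. Summed over 8 neutrophil markers the level was 6124 CPM in macrophages and 18718 CPM in monocytes. Of these, 5 were at least 2-fold lower, among them Camp, Ngp and Ltf, and 3 were higher, namely Cxcr2 (9.16-fold), Mmp8 (5.29-fold) and Retnlg (2.74-fold). The summed level of 7 erythroid markers was 13.6 CPM in macrophages and 155.5 CPM in monocytes (Hbb-bs, Slc4a1 and Car1 had no exon read in macrophages). Of these, 6 were at least 2-fold lower, while Gata1 lay within 2-fold at 10.7 CPM in macrophages and 8.58 CPM in monocytes. The summed level of 7 B cell markers was 14.8 CPM in macrophages and 56.0 CPM in monocytes (Dntt had none in macrophages). Over 6 T and NK cell markers it was 3.05 CPM in macrophages and 109.5 CPM in monocytes, nearly all of the monocyte value from Nkg7 (1.49 and 107 CPM), with Cd3d at 0 reads in macrophages. Over 8 stromal and endothelial markers it was 1012 CPM in macrophages and 1841 CPM in monocytes, mostly from Col1a1 and Col1a2, while Postn was 115-fold (62.4 to 240.3) and Col3a1 17.1-fold higher (8.48 to 40.1) in macrophages. Over 5 megakaryocyte markers it was 415.5 CPM in macrophages and 96.1 CPM in monocytes. The part of these cells in the values of the Kruppel-like factors was not tested, and fewer cells of a type cannot be told apart from less RNA per cell.

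The promoters of the most abundant members are shown first, because their RNA levels dominate the comparison. RefSeq promoter sequences on GRCm38.p6 were at hand for 8 of the 10 members, and the 250 bases before the annotated start are printed 5′ to 3′ on the strand of the gene. Klf2 lies at chr8:72318812-72319061 on the plus strand, Klf4 at chr4:55532476-55532725 on the minus strand, and Klf6 at chr13:5861239-5861488 on the plus strand. Klf3, a member that lay within 2-fold, is added for contrast, at chr5:64803271-64803520 on the plus strand. Capitals mark CACCC and GGGCGG on either strand (GGGTG and CCGCCC when read on the minus strand) and the MEF2 site, and neighbouring matches may overlap.
Klf2: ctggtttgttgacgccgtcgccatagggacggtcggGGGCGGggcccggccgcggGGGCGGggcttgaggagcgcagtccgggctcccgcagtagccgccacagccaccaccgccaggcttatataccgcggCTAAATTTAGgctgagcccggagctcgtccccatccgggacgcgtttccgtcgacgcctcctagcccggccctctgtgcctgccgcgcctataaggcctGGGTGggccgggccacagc
Klf4: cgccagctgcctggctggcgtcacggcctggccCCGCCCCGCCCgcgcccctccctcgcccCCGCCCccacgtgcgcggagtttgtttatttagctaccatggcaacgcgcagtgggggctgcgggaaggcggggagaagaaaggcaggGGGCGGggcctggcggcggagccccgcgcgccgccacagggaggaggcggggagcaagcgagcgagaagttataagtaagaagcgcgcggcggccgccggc
Klf6: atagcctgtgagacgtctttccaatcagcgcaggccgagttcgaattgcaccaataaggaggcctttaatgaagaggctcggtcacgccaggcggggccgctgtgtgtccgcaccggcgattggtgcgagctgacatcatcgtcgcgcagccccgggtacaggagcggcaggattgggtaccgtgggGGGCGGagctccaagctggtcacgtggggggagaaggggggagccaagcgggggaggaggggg
Klf3: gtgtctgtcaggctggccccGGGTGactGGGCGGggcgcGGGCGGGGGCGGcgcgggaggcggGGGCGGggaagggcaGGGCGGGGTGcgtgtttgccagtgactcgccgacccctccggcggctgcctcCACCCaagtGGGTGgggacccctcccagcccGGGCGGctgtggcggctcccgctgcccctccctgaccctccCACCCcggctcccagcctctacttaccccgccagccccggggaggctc

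The GC content of the 8 promoters ran from 59.2% for Klf7 and 59.6% for Klf9 to 78.4% for Klf3. It was 71.2% for Klf2, 74.0% for Klf4 and 64.8% for Klf6, against a median of 52.4% over 32851 RefSeq promoters of the same length. The motif CACCC occurred in 5 of the 8 member promoters, against 52.0% of all promoters. Klf3 held 5 copies and Klf7 held 3, while none was found in this window of Klf4, Klf6 or Klf11. GGGCGG, the GC box that SP and Kruppel-like factors bind, occurred in 7 of 8, against 32.7% of all. Klf3 held 6 copies, Klf4 and Klf11 held 4 each, and Klf9 was the promoter without one. The MEF2 site, searched for by the usual consensus of the MEF2 factors, occurred once among the members, in Klf2 at positions -118 to -109 from the start, and in 2.92% of all promoters. MEF2 factors are known to act on Klf2 downstream of the kinase ERK5. CCAAT occurred in 4 of 8 (33.8% of all) and TGACG, the core of the cyclic AMP response element, in 4 of 8 (17.8%). TATAAA and the CArG box, the binding site of SRF, occurred in 0 of 8, against 12.4% and 1.47% of all promoters. These matches describe the letters in the window and were not compared with binding data. The shares over all promoters were not matched for GC content, which lay above the median in all 8 member promoters. The RefSeq start lay 893 bases downstream of the start listed in the table for Klf7, 133 bases downstream for Klf3 and 29 bases downstream for Klf2.

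Levels of all 10 Kruppel-like factors were lower in the macrophages. On log2(CPM + 1), 6 were at least 2-fold lower (Klf2, Klf4, Klf5, Klf6, Klf10 and Klf11), 4 lay within 2-fold (Klf3, Klf7, Klf9 and Klf13) and 0 were at least 2-fold higher. Among the 10407 genes at 5 CPM or more, 19.9% were at least 2-fold lower and 13.8% at least 2-fold higher, and 60.3% had a log2 ratio below 0. The median log2 ratio of the members was -1.52, beside -0.23 for all genes. Summed over the 10, the level was 1195 CPM in macrophages and 4473 CPM in monocytes, 3.74-fold lower (3.68 to 3.80). The balance of all genes depended on scaling, since 41.0% of genes past 2-fold were higher in macrophages as scaled here, against 54.3% after centring on the median of all genes and 53.3% with trimmed mean scaling. The same 6 members stayed at least 2-fold lower under both, Klf6 only just (log2 ratio -1.003 and -1.02).

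**Figure D1:**
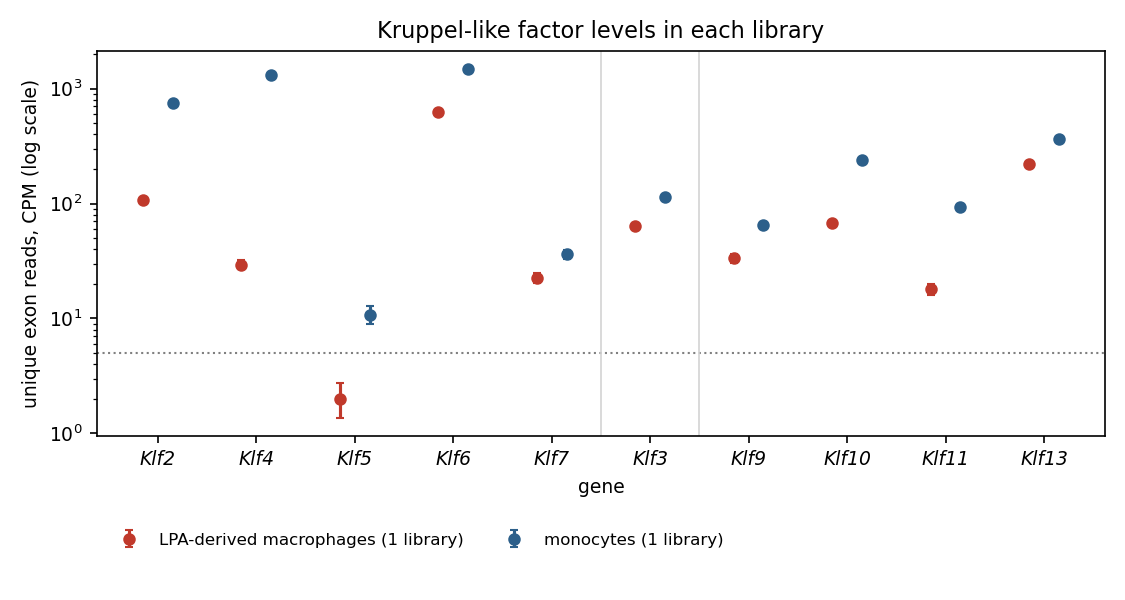
Level of each Kruppel-like factor in CPM of unique exon reads (log scale), in the macrophage library (red, left of each pair) and the monocyte library (blue). Bars are 95% Poisson counting intervals, often smaller than the point, the dotted line marks 5 CPM, and vertical lines part the activating, CtBP and SIN3A branches. Every red point lies below its blue partner, most widely for Klf4 (29.5 and 1316 CPM in macrophages and monocytes).

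Klf4 (chromosome 4, 55527143 to 55532466, minus strand) had the widest difference of the family. It stood at 29.5 CPM in macrophages and at 1316 CPM in monocytes, from 493 and 16416 exon reads. The macrophage level was 44.7-fold lower (40.8 to 48.9), and only 14 of the 10407 genes had a lower log2 ratio than its -5.43. By RPKM, which divides by exon length so that genes can be compared, Klf4 ranked 4772nd of the 15568 genes with exon reads in the macrophage library, and 97th of 15630 in the monocyte library. The authors' deposited table gives Klf4 a fold change of -35.3, the minus sign meaning lower in macrophages.

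Klf2 (chromosome 8, 72319033 to 72321656, plus strand) was next in the activating branch. It stood at 107 CPM in macrophages and 749.9 CPM in monocytes, 6.98-fold lower (6.64 to 7.35). Its log2 ratio was -2.79, with 2.54% of genes below it. Klf2 is abundant in resting lymphocytes and endothelium as well as in monocytes, and the summed levels of T and NK cell markers and of B cell markers were also lower in the macrophage library, as given above. The T cell genes Cd3d, Cd3e and Cd3g had 0, 1 and 4 exon reads in macrophages and 11, 4 and 7 in monocytes. Nkg7 had 25 in macrophages and 1333 in monocytes. Of the endothelial genes, Pecam1 was 2.05-fold lower (1.83 to 2.29). Cdh5 had 2 exon reads in macrophages and 20 in monocytes, and Kdr had 66 and 44. Klf2 itself had 1797 exon reads in macrophages and 9354 in monocytes, and the part of such cells in its level was not tested.

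Klf6 (chromosome 13, 5861489 to 5870393, plus strand) was the most abundant member by reads in both libraries. It stood at 629.8 CPM in macrophages and 1485 CPM in monocytes, 2.36-fold lower (2.30 to 2.42). Its log2 ratio of -1.24 became -1.003 after centring on the median of all genes, which is past 2-fold but within counting error of that line. It remained a highly expressed gene in macrophages, at rank 295 by RPKM, against rank 125 in monocytes.

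Klf5 and Klf7 were the low members of the activating branch. Klf5 (chromosome 14, 99298691 to 99313405), which drives the growth of epithelial and smooth muscle cells, had 33 exon reads in macrophages and 134 in monocytes. That is 1.97 and 10.7 CPM, 5.45-fold lower with a wide interval (3.70 to 8.23). Klf7 (chromosome 1, 64029447 to 64122282), known from neurons and from the restraint of fat cell formation, stood at 22.7 CPM in macrophages and 36.2 CPM in monocytes, 1.60-fold lower (1.39 to 1.83). The difference depended on the reads counted, at 2.28-fold lower (2.03 to 2.56) by all reads in the gene, past 2-fold, and 1.17-fold lower (0.772 to 1.76) by junction reads. GENCODE M21 lists 3 other genes within the Klf7 locus, of which Gm26649 and Gm13748 lie on the opposite strand. The sources do not say if the counting used strand, so reads of these genes may be part of its level.

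Klf3 (chromosome 5, 64803388 to 64832901), a repressor that recruits CtBP and is best known from red cells and B cells, lay within 2-fold. It stood at 64.3 CPM in macrophages and 114 CPM in monocytes, 1.77-fold lower (1.63 to 1.92). The opposite-strand gene Gm20033 and the same-strand gene C230096K16Rik overlap it.

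In the SIN3A branch the TGF-beta inducible pair was lower by more than 2-fold and the other pair was not. Klf10 (chromosome 15, 38294413 to 38300707), also called TGF-beta inducible early gene, stood at 67.1 CPM in macrophages and 238 CPM in monocytes, 3.54-fold lower (3.30 to 3.79). Klf11 (chromosome 12, 24651371 to 24662774), its close relative, stood at 17.9 CPM in macrophages and 93.2 CPM in monocytes, 5.19-fold lower (4.57 to 5.92). Both had intervals wholly beyond 2-fold.

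Klf9 (chromosome 19, 23141226 to 23166911), a gene induced by glucocorticoids and thyroid hormone, stood just inside the 2-fold line. It had 33.3 CPM in macrophages and 64.9 CPM in monocytes, 1.95-fold lower with an interval of 1.75 to 2.17 that spans 2-fold. Klf13 (chromosome 7, 63886351 to 63938915), which activates Ccl5 in T cells, was the most abundant of its branch in macrophages, at 221 CPM against 366 CPM in monocytes, 1.65-fold lower (1.58 to 1.73). E030018B13Rik and Gm27252, both on the opposite strand, overlap Klf13.

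**Figure D2:**
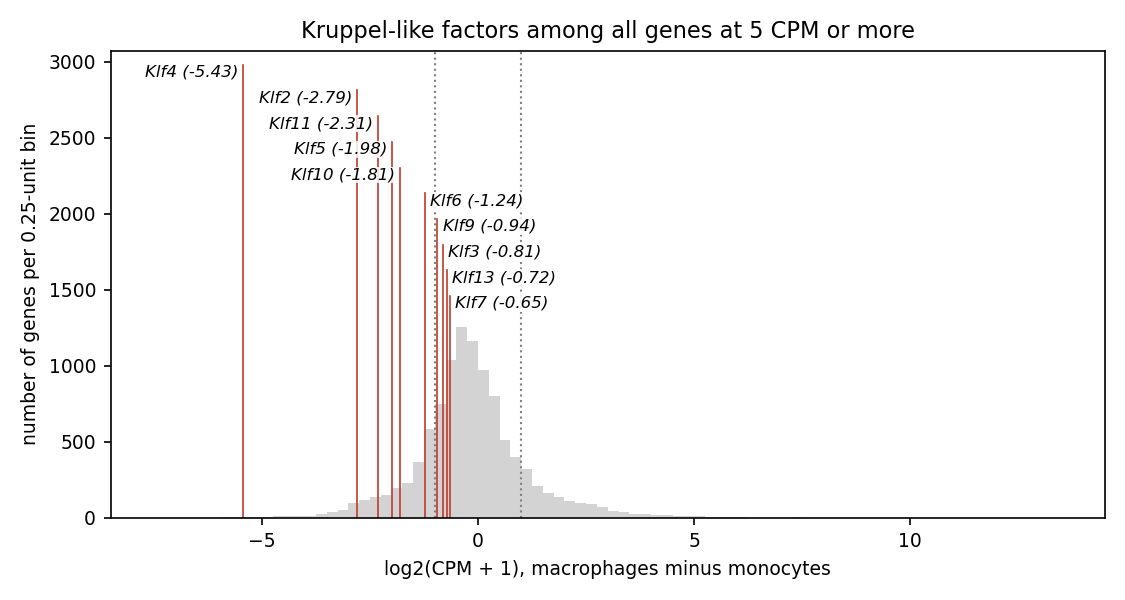
Histogram (grey) of the log2 ratio of log2(CPM + 1), macrophages minus monocytes, for the 10407 genes at 5 CPM or more, with the Kruppel-like factors as red lines labelled with their values (the height of a line has no meaning). Dotted lines mark 2-fold. All 10 members lie left of 0, from -5.43 for Klf4 to -0.65 for Klf7.

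The make-up of the family differed as well. Per exon length, Klf6 led in macrophages at 131.5 RPKM, followed by Klf2 (51.2), Klf13 (29.2), Klf10 (19.4), Klf9 (8.99), Klf4 (8.51), Klf3 (5.04), Klf11 (3.74), Klf7 (2.46) and Klf5 (1.01). In monocytes Klf4, Klf2 and Klf6 led at 362, 341 and 296 RPKM, followed by Klf10 (65.5), Klf13 (46.0), Klf11 (18.5), Klf9 (16.7), Klf3 (8.50), Klf5 (5.24) and Klf7 (3.74). Klf4 thus stood sixth in macrophages and first in monocytes. Neighbours whose counting intervals overlapped were Klf9 and Klf4 in macrophages, and Klf11 and Klf9 in monocytes. Of the summed RPKM of the 10 genes, Klf6 made up 50.4% in macrophages and 25.4% in monocytes, while Klf4 made up 3.26% in macrophages and 31.2% in monocytes. The share of Klf13 was 11.2% in macrophages and 3.96% in monocytes. By branch, the summed level of the activating genes was 4.55-fold lower (4.46 to 4.64) and that of the SIN3A genes 2.24-fold lower (2.17 to 2.32).

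**Figure D3:**
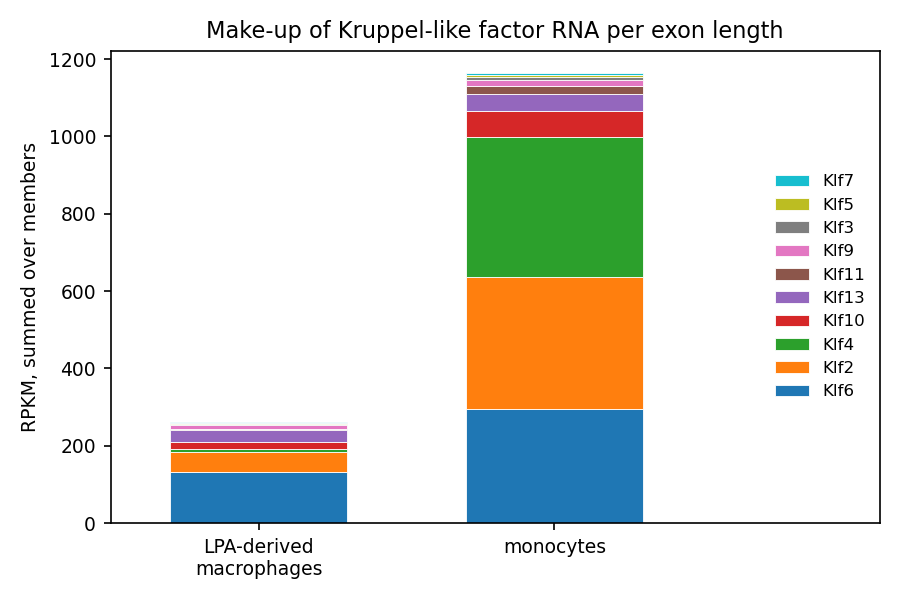
Stacked RPKM (reads scaled by exon length and library total, from the authors' deposited values) of the 10 Kruppel-like factors in the macrophage library (left) and the monocyte library (right), starting at 0. The macrophage bar reaches 261 and the monocyte bar 1163 RPKM, and Klf6 fills most of the lower part of the macrophage bar while Klf6, Klf2 and Klf4 fill most of the monocyte bar.

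Reads across exon junctions and within introns gave further readouts from the same libraries, which are not replicates. Junction reads, which come from spliced RNA, were lower in macrophages for all 10 genes. For Klf4 they numbered 57 in macrophages and 2652 in monocytes, 62.4-fold lower (48.0 to 82.6), and for Klf2 302 in macrophages and 1702 in monocytes, 7.56-fold lower (6.68 to 8.57). For Klf3 the 150 macrophage and 246 monocyte junction reads gave 2.20-fold (1.79 to 2.71), past 2-fold where exon reads were not. The intervals for Klf7 (54 and 47 junction reads in macrophages and monocytes) and Klf9 (24 and 29) included no difference.

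Intron reads stood apart for Klf6 and Klf4. Klf6 had 351 intron reads in macrophages and 180 in monocytes, so that its intron level, scaled by the exon total of each library, was 1.45-fold higher in macrophages (1.21 to 1.75), whereas its exon level was 2.36-fold lower. Intron reads made up 3.22% (2.90 to 3.57) of its reads in macrophages and 0.962% (0.828 to 1.11) in monocytes. Klf4 had 64 intron reads in macrophages and 181 in monocytes, 3.79-fold lower (2.84 to 5.13) against 44.7-fold for exons, and its intron share was 11.5% (8.96 to 14.4) in macrophages and 1.09% (0.938 to 1.26) in monocytes. Over all genes the opposite held, with intron reads at 9.90% of exon and intron reads in the macrophage library and 14.1% in the monocyte library.

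The log2 difference in intron reads per exon read, macrophages minus monocytes, was 3.56 for Klf4 and 1.78 for Klf6, beside a median of -0.47 over 8257 genes with at least 50 intron reads over both libraries, a minimum that Klf5 (8 and 21 intron reads in macrophages and monocytes) did not reach. Of those genes, 99.95% lay below Klf4 and 99.0% below Klf6. Klf2 was at 0.40, with 11.0% and 8.57% intron reads in macrophages and monocytes. Klf7 lay on the other side at -1.67, with 92 intron reads in macrophages and 350 in monocytes, or 19.5% and 43.6% of its reads. What the intron reads stem from was not tested.

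**Figure D4:**
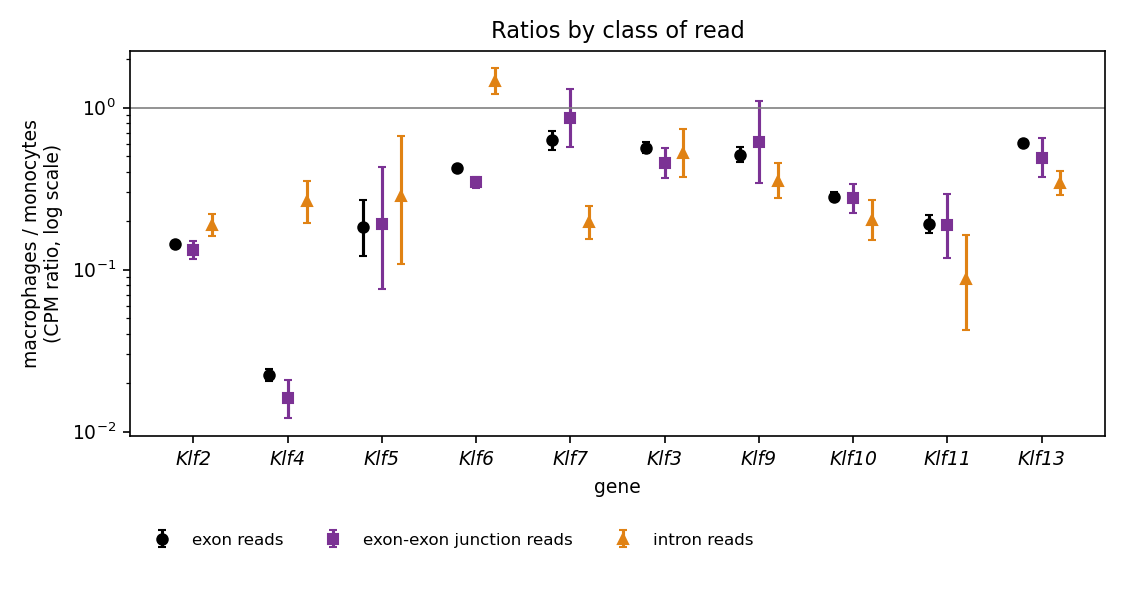
Ratio of macrophages to monocytes (CPM scaled by exon totals, log scale) for each Kruppel-like factor by exon reads (black circles), exon-exon junction reads (purple squares) and intron reads (orange triangles), with exact 95% counting intervals. For Klf6 the intron point lies above 1 and the exon point below it, and for Klf4 the intron point lies far above the exon and junction points.

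Genes that respond as fast as several Kruppel-like factors do were mostly lower too. Of 17 immediate early genes, 12 were at least 2-fold lower in macrophages and 2 were higher, beside 19.9% and 13.8% of all genes. Their median log2 ratio was -1.34, beside -0.23 for all genes. Nr4a1, a nuclear receptor gene that patrolling monocytes need, was 112-fold lower (99.6 to 125), Nr4a2 77.9-fold, Nr4a3 57.9-fold and Fosb 10.7-fold lower. Egr2 was 5.07-fold higher (4.48 to 5.75) and Dusp1 2.16-fold higher (2.09 to 2.23), while Fos stood at 899 CPM in macrophages and 998 CPM in monocytes. The link between this list and the rapidly induced Klf2, Klf4, Klf6 and Klf10 was not tested.

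Known inputs of the family gave no single direction. Of 10 genes of the ERK5 route to Klf2 and Klf4 and of the FOXO factors, 9 lay within 2-fold (median -0.26), beside 66.2% of all genes. Map2k5, which encodes the kinase MEK5, stood at 36.6 CPM in macrophages and 32.5 CPM in monocytes, and Mapk7, which encodes ERK5, at 54.5 and 70.6 CPM. Mef2d was the gene past 2-fold, at 163 CPM in macrophages and 329 CPM in monocytes, 2.02-fold lower (1.92 to 2.12), an interval that spans 2-fold. Foxo3, a FOXO gene that like Foxo1 can induce Klf2 in lymphocytes, was 1.83-fold higher (1.72 to 1.95).

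Among 7 TGF-beta genes, which feed Klf10 and Klf11, 2 were higher and 1 was lower (median -0.29), beside 13.8% and 19.9% of all genes. The receptor genes Tgfbr1 and Tgfbr2 were 4.94-fold (4.57 to 5.33) and 2.46-fold (2.24 to 2.69) higher in macrophages, while the inhibitor gene Smad7 was 3.34-fold lower (2.96 to 3.76). Tgfb1 stood at 395 CPM in macrophages and 306 CPM in monocytes. Klf10 and Klf11 were lower, as Smad7 was, whereas both receptor genes were higher. A link between these genes and Klf10 or Klf11 was not tested.

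Of 6 glucocorticoid genes, the setting in which Klf9 is best known, 4 were lower and 0 higher (median -1.57), beside 19.9% and 13.8% of all genes. Per1, a clock gene that glucocorticoids induce, was 10.1-fold lower (9.31 to 10.9), Tsc22d3, which encodes GILZ, 3.62-fold lower (3.40 to 3.85) and Fkbp5 3.41-fold lower (3.03 to 3.84). The receptor gene Nr3c1 lay within 2-fold, at 116 CPM in macrophages and 160.2 CPM in monocytes. Sgk1, also among the 6, lay within 2-fold too, but on the other side from Per1, Tsc22d3 and Fkbp5. It was 1.51-fold higher (1.43 to 1.59), at 252 CPM in macrophages and 167 CPM in monocytes. A link between these genes and Klf9 was not tested.

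Of 12 corepressor and coactivator genes 10 lay within 2-fold (median -0.43), beside the 66.2% of all genes given above. Ctbp1, the corepressor of Klf3, stood at 199.7 CPM in macrophages and 279.6 CPM in monocytes, and Sin3a at 34.3 and 62.7 CPM. The exceptions were Fhl3, a LIM-domain partner of Klf3, at 6.198-fold higher (5.20 to 7.44), and Hdac1, a histone deacetylase, at 2.20-fold lower (2.0003 to 2.43).

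Of 6 genes of the ubiquitin ligases that act on Kruppel-like factors, 1 was higher and 0 lower (median -0.13). Among all genes, 13.8% were higher and 19.9% lower. The higher ligase gene was Wwp1, which encodes a ligase known to act on KLF2 and KLF5. It stood at 157 CPM in macrophages and 19.9 CPM in monocytes, 7.91-fold higher (6.94 to 9.05). Fbxw7, another ligase gene for both factors, stood at 5.98 CPM in macrophages and 11.2 CPM in monocytes.

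Genes reported elsewhere as targets of the family were spread over both sides. Of 15 at 5 CPM or more, 8 were higher and 4 lower in macrophages (median 1.06), beside 13.8% and 19.9% of all genes. Targets that KLF2 activates in lymphocytes or endothelium split: Itgb7, an integrin gene, was 9.01-fold lower (8.41 to 9.67) and Thbd (thrombomodulin) 4.88-fold lower (4.38 to 5.44), whereas S1pr1, the sphingosine-1-phosphate receptor, was 8.85-fold higher (6.79 to 11.7).

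Lgals3, which encodes galectin-3 and is repressed by KLF3 in mice, was 7.02-fold higher (6.87 to 7.18), at 4899 CPM in macrophages and 698 CPM in monocytes. Ccl5, the target of KLF13 in T cells, was 5.41-fold higher (3.52 to 8.67) from 174 and 24 reads in macrophages and monocytes. Pparg, which KLF5 induces in fat cells, was 9.44-fold higher (7.66 to 11.8). Of the KLF4-linked genes of alternative activation, Mrc1 was 4.20-fold higher (3.83 to 4.60), whereas Arg1 (14 and 10 reads in macrophages and monocytes) and Retnla (1 and 0 reads) were under 5 CPM. Cdkn1a, the cell cycle inhibitor gene that KLF4 and KLF6 activate, was 2.31-fold lower (2.18 to 2.44).

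**Figure D5:**
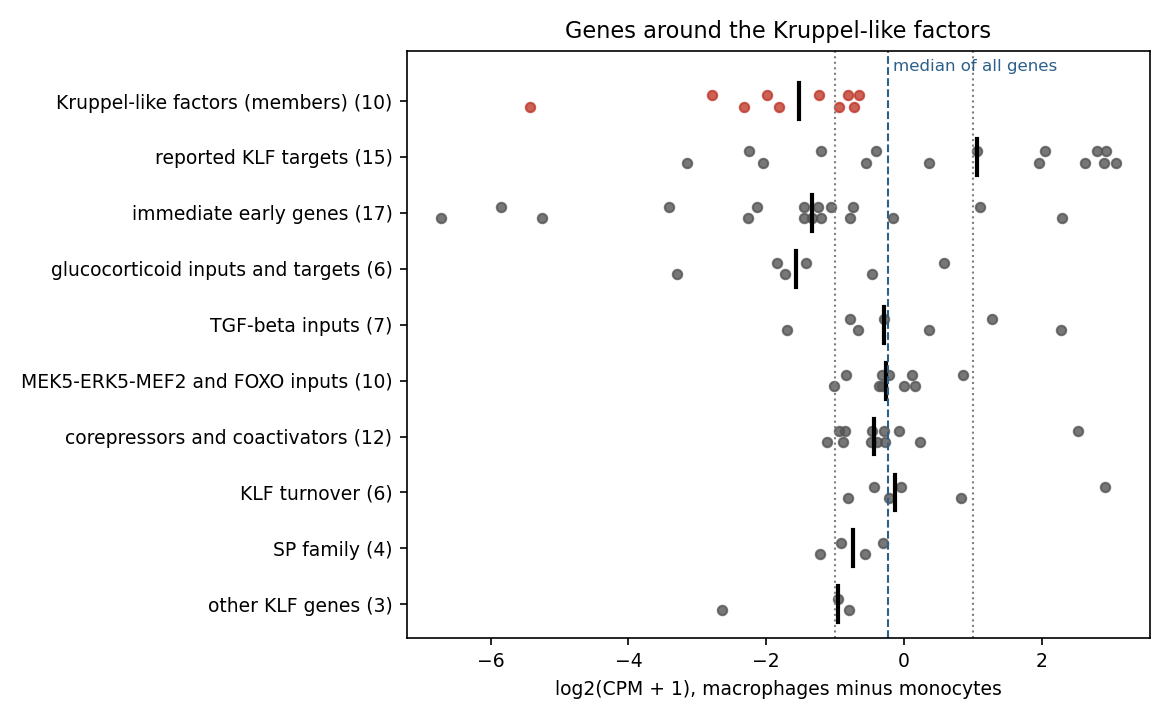
Log2 ratio (log2(CPM + 1), macrophages minus monocytes) of the 10 Kruppel-like factors (red) and of the genes at 5 CPM or more in each list around them (grey, 1 point per gene, number in brackets), with the median of each list as a black bar. The dashed blue line is the median of all genes (-0.23) and dotted lines mark 2-fold. The members, the immediate early genes and the glucocorticoid genes have medians below -1, and the reported targets spread to both sides.

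Of the 7 remaining Kruppel-like factor genes, 3 reached 5 CPM in either library. Of these, Klf16 stood above the member Klf5 in both libraries by CPM and by RPKM. Klf8 did so by CPM, with overlapping counting intervals in monocytes, but lay below Klf5 by RPKM. Klf1, the erythroid member, had 0 exon reads in macrophages and 65 in monocytes. With 3 reads put in place of 0 it was 29.1-fold lower, and the 95% counting interval of the fold starts at 23.0. The summed level of erythroid markers given above was also lower, though Gata1 among them was not. Klf16 stood at 17.0 CPM in macrophages and 30.2 CPM in monocytes, and Klf8, on the X chromosome, at 5.32 and 11.3 CPM. Both lay within 2-fold on log2(CPM + 1), although by the plain ratio Klf8 was 2.12-fold lower (1.62 to 2.80). Klf12 (1 and 1 reads in macrophages and monocytes), Klf14 (1 and 0), Klf15 (7 and 3) and Klf17 (2 and 0) had too few reads to compare.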

How the data were processed

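Total RNA of 1 library of LPA-derived macrophages and 1 library of monocytes was sequenced, and each library was assigned to its group by its title. Per the file headers, the authors deposited counts of unique reads in genes, exons, introns and across exon-exon junctions, exon lengths in bases, and RPKM. The deposited normalized signal has the same sorted values in both libraries (0 of 47643 differ), and per the file headers the signed fold change (a score) and the FDR-corrected p-value come from it. These p-values compare 1 library with 1 and are not used. No source used here names the mapper. The build is mm9 per the submitters' processing notes, yet 40736 of 47224 gene identifiers found in GENCODE M21 have exactly its GRCm38 coordinates once the deposited starts, counted from 0, are raised by 1.

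Unique exon reads were scaled to CPM, with a floor of 5 CPM in either library (83.6 reads in macrophages, 62.4 in monocytes). Log2 ratios use a pseudocount of 1, and calls of higher or lower require 2-fold on that scale. Folds are plain CPM ratios with exact conditional (Clopper-Pearson) 95% intervals, levels have Poisson and shares exact binomial intervals, and all cover counting error only. RPKM values are scaled by other totals (in units of 1e6 reads, 19.0 in macrophages and 14.9 in monocytes). Intervals and calls were tried on simulated reads that held counting error only, so the trial checks the code and says nothing of the spread between cultures or animals. Python 3.11.15, scipy 1.17.1 and edgeR 4.0.16 (scaling factors only) were used. The members, the 9 lists and the 8 marker lists were chosen with earlier results of these data known. All members are named, and from each list up to 4 genes with the widest ratio and genes linked to a member. The choice of Egr2, Dusp1, Fos, Nr3c1, Tgfb1 and the other list genes named beyond this rule was made with their values in view. Some genes that the rule would name are not reported here. Other pseudocounts, floors, scalings and read classes were tried.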

Additional observations from a re-analysis of the deposited data

How the results depend on the processing

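The counts of members at least 2-fold lower, within 2-fold and at least 2-fold higher (6, 4 and 0) stayed within 1.5 times under 9 other settings of pseudocount, floor, scaling and read class (with the fold change from the authors' deposited table as one of them) and under 2 added after seeing the data (totals implied by RPKM, and junction reads). The exceptions to identical counts were a floor of 25 CPM, which leaves out Klf5 (5 lower of 9), gene reads, which put Klf7 past 2-fold, and junction reads, which put Klf3 past it (7 lower each). Of 109 alternative log2 ratios of single members, 0 reversed, 61 stayed within the counting interval and 48 moved beyond it. They ranged from -5.71 to -5.14 for Klf4, -2.81 to -2.55 for Klf2, -2.34 to -2.05 for Klf11, -2.26 to -1.17 for Klf5, -1.82 to -1.56 for Klf10, -1.45 to -1.003 for Klf6, -1.02 to -0.56 for Klf3, -0.96 to -0.50 for Klf9, -0.89 to -0.49 for Klf13 and -1.09 to -0.13 for Klf7. The lower end for Klf7 is from gene reads and the upper end from junction reads. Depth limits Klf5 most, at 33 exon reads in macrophages. No paired analysis was possible because each group has 1 library, and for the same reason no replicate could be left out.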

Other observations

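The SP genes, the nearest relatives of the Kruppel-like factors and binders of the same GC boxes, were nearer to the median of all genes. Of 9, 4 reached 5 CPM in either library, with a median log2 ratio of -0.73: 1 was at least 2-fold lower, 3 lay within 2-fold and 0 were higher. The shares over all genes were 19.9%, 66.2% and 13.8%. Sp2 was 2.47-fold lower (2.02 to 3.04), from 148 exon reads in macrophages and 273 in monocytes. Sp1 stood at 101.5 CPM in macrophages and 191 CPM in monocytes, Sp3 at 122.5 and 181 CPM, and Sp4 at 14.0 and 17.5 CPM. Sp3 also had a lower intron share in macrophages (16.4%, 14.9 to 17.9) than in monocytes (30.2%, 28.6 to 31.8), whereas Sp2, like Klf4 and Klf6, had a higher one (41.5%, 35.4 to 47.8, in macrophages and 22.9%, 18.6 to 27.6, in monocytes). Sp5, Sp8 and Sp9 had no exon read in either library. Whether the families differ was not tested.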
